A study of Caenorhabditis elegans and Caenorhabditis briggsae with 12 samples.

Results

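The genes described here encode the core machinery of autophagy in *Caenorhabditis* worms, and they were chosen by name: 9 genes of the *C. elegans* table (*unc-51*, *bec-1*, *atg-9*, *atg-18*, *atg-7*, *lgg-1*, *lgg-2*, *sqst-1* and *epg-5*) and 1 gene of the *C. briggsae* table (*Cbr-bec-1*), 10 of 41381 genes in both tables. The study compared worms given a heat shock (HS) with worms that were not heated (NHS) in both species by RNA-seq of whole L2 larvae. The groups, 4 in all, were *C. elegans* HS and *C. elegans* NHS larvae of N2, the laboratory wild type, and *C. briggsae* HS and *C. briggsae* NHS larvae of the wild-type strain AF16. HS larvae were held at 34 °C for 30 min and NHS larvae were kept at 20 °C, with 3 biological replicates in each group and 12 libraries in all. No transgene or mutant was used. Whole larvae hold all tissues, so fewer cells of a type and less RNA per cell cannot be told apart in these values, and RNA levels do not measure autophagic flux.

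Autophagy encloses part of the cytoplasm in a double membrane, the autophagosome, which then fuses with lysosomes where its content is degraded. The UNC-51 kinase starts the process, the VPS-34 lipid kinase complex with BEC-1 makes the lipid PI3P on the growing membrane, ATG-9 vesicles and PI3P-binding proteins such as ATG-18 help it grow, and the ubiquitin-like proteins LGG-1 and LGG-2 are attached to its lipids by an enzyme cascade that begins with ATG-7. Cargo receptors such as SQST-1 bring ubiquitinated proteins into the autophagosome, and EPG-5 tethers the finished autophagosome to late endosomes and lysosomes. In *C. elegans* heat is known to induce autophagy, and SQST-1 is itself degraded with its cargo.

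In *C. elegans* the RNA of the cargo receptor *sqst-1* rose 3.33-fold after HS (95% interval 1.96 to 5.65), whereas that of *lgg-2*, *atg-18* and *epg-5* fell by 41.1%, 28.7% and 29.8%. The other 5 genes, *unc-51*, *bec-1*, *atg-9*, *atg-7* and *lgg-1*, did not pass the test, and their log2 fold changes lay between -0.16 and 0.06. In *C. briggsae* the single gene, *Cbr-bec-1*, was 2.48-fold higher after HS (95% interval 1.54 to 4.01), with no overlap between HS and NHS libraries but an adjusted p of 0.0162, above the threshold of 0.01.

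Values are normalized counts as the authors deposited them, and fold changes are differences of log2(normalized count + 1) between the means of HS and NHS libraries, tested with limma across all genes of a species. A gene passes at an adjusted p under 0.01 and is called up or down when it also changes more than 2-fold. In *C. elegans*, 15.8% of the 17551 genes tested passed as higher in HS and 12.9% as lower, 10.2% were called up and 2.77% were called down. Of the 9 genes, 1 passed as higher and 3 as lower, and 1 was called up and 0 down. HS and NHS values did not overlap for 4 of the 9 genes, 1 higher and 3 lower in HS, beside 30.6% of all genes higher and 25.5% lower. No test set these counts against those of all genes. The median log2 fold change was -0.11 for the 9 genes and 0.04 for all genes tested.

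Library totals were higher after HS, at 39400000 to 43000000 normalized counts in HS and 32200000 to 32500000 in NHS libraries of *C. elegans* and at 44900000 to 46900000 in HS and 34600000 to 35300000 in NHS libraries of *C. briggsae*. The depth of the libraries was estimated at 28600000 to 52600000 reads. When libraries were scaled to equal totals instead, the median of all *C. elegans* genes shifted to -0.32. Of the 9 genes 1 then passed as higher and 6 as lower, beside 9.53% and 37.4% of all genes. The 6 included *unc-51* (adjusted p = 0.00226), *bec-1* (0.00164) and *atg-7* (0.00559), which did not pass in the main fit. With equal upper quartiles the median of all genes was 0.25, and 1 of the 9 passed as higher and 2 as lower, beside 27.5% and 5.71%. The directions of *sqst-1*, *lgg-2*, *atg-18* and *epg-5* were the same under each scaling, while those of the other 5 *C. elegans* genes changed sign under at least 1. In *C. elegans* the marker genes of all main tissues were detected: the sums of muscle and pharynx markers were higher in HS than in NHS libraries, and those of the neuron markers (2236 to 2366 in HS, 2928 to 3097 in NHS) and germline markers (4741 to 5225 in HS, 5559 to 5730 in NHS) were lower. Hypodermis markers summed to 3531, 3856 and 6616 in HS and 7924, 5906 and 11002 in NHS libraries, so that HS replicate 3 was high for them. Of the intestine markers *ges-1* passed as lower and *elt-2* as higher, and the sums overlapped. The yolk genes *vit-2*, *vit-5* and *vit-6* made up nearly all of a sum of adult markers of 60.9 to 109 in HS and 14.6 to 19.1 in NHS libraries, while the sperm gene *msp-3* was at 0 in all 6 libraries and *msp-19* at 0 in all but HS replicates 1 and 2. The part of these shifts in the results was not tested, and markers of *C. briggsae* tissues were not analysed here.

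One HS library in each species stood apart for these genes. In *C. elegans*, HS replicate 3 had the lowest value of the 3 HS libraries for 8 of the 9 genes (*unc-51* was lowest in HS replicate 1), beside 36.3% of all genes. In *C. briggsae*, HS replicate 1 had the lowest HS value for 12 of 12 autophagy and lysosome genes with a name at hand, beside 36.4% of all genes. Shifts were taken on the log2 scale against the mean of the other HS libraries. Over all genes with at least 10 normalized counts in HS, the median shift was 0.003 in *C. elegans* HS replicate 3 and 0.02 in *C. briggsae* HS replicate 1. For the 9 *C. elegans* genes it was -0.36, and for the 12 *C. briggsae* genes, which include the lysosome genes *Cbr-cpl-1* and *Cbr-ctns-1*, it was -0.60. These sets of genes are unlike. The other *C. elegans* autophagy and lysosome genes described below were not counted here, and *sepa-1* among them had its highest HS value in HS replicate 3. Genes that passed as higher in HS had medians of -0.05 and -0.06, but passing favours genes whose HS values lie close together, so these medians are no baseline. *C. briggsae* HS replicate 1 stood apart beyond these genes too. Without it 3071 of all *C. briggsae* genes passed as higher and 3024 as lower, beside 1501 and 1285 with all libraries. Leaving out any other *C. briggsae* library lowered both counts. Over all *C. elegans* genes, 2738 passed as higher and 2506 as lower without HS replicate 3, beside 2765 and 2266 with all libraries. Results are also given without *C. elegans* HS replicate 3 or without *C. briggsae* HS replicate 1. These libraries were singled out by the low values of the same genes, so leaving them out raises the HS means of those genes by choice. Such fits are given as description and are not independent evidence.

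**Figure D1:**
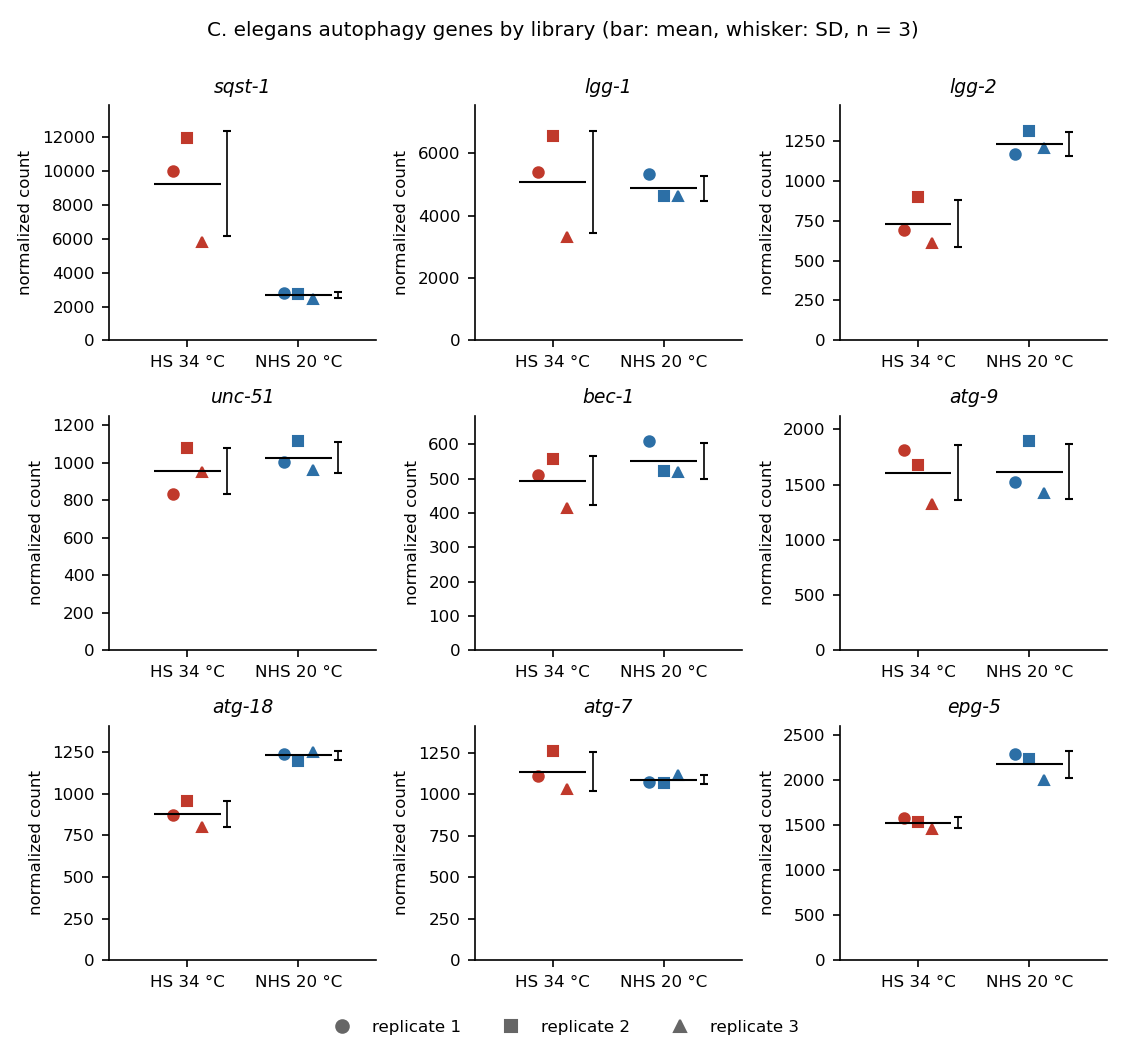
Normalized counts of the 9 *C. elegans* autophagy genes in each library, HS left of NHS, with a symbol for each replicate, a bar at the mean and a whisker of 1 SD (n = 3); each vertical axis starts at 0. The HS values of *sqst-1* lie above all NHS values, those of *lgg-2*, *atg-18* and *epg-5* lie below them, and HS replicate 3 (triangle) is the lowest HS library in 8 of the 9 plots.

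*unc-51*, on the minus strand of chromosome V from 19995986 to 20004485 (WBcel235), encodes the ULK1 (Atg1) kinase that starts autophagosome formation. It had 832, 1079 and 954 normalized counts in HS libraries and 1003, 1118 and 961 in NHS libraries. The groups overlapped, and its log2 fold change of -0.11 ± 0.10 (SE) did not pass (adjusted p = 0.398, 95% interval -0.33 to 0.11).

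*bec-1* encodes Beclin 1, a subunit of the VPS-34 complex, and lies on the minus strand of chromosome IV from 5661141 to 5664425. It had 511, 558 and 416 normalized counts in HS libraries, against 611, 524 and 519 in NHS libraries. HS replicate 2 lay within the NHS range and the other HS libraries below it. The log2 fold change of -0.16 ± 0.12 (SE) did not pass (adjusted p = 0.285, 95% interval -0.42 to 0.10).

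Membrane supply was represented by *atg-9* (plus strand of chromosome V, 349385 to 359658), which encodes the transmembrane protein of autophagy vesicles, and by *atg-18* (minus strand of chromosome V, 8629174 to 8631327), which encodes a WIPI protein that binds PI3P. *atg-9* had 1811, 1678 and 1329 normalized counts in HS libraries and 1527, 1898 and 1424 in NHS libraries. These ranges overlapped widely, and the log2 fold change was -0.01 ± 0.15 (SE) with an adjusted p of 0.961. *atg-18* had 874, 958 and 800 normalized counts in HS libraries, against 1239, 1196 and 1250 in NHS libraries. All HS libraries lay below all NHS libraries, and *atg-18* fell by 0.49 on the log2 scale (SE 0.08, adjusted p = 0.000844). It passed without any 1 of the 6 libraries (adjusted p at most 0.00530), and it was lower but did not pass with equal upper quartiles (log2 fold change -0.28, adjusted p = 0.0129) or when limma was run with neither trend nor robust variances.

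*atg-7* encodes the E1-like enzyme that activates LGG-1, LGG-2 and LGG-3 and lies on the minus strand of chromosome IV from 11078682 to 11081055. It had 1108, 1261 and 1031 normalized counts in HS libraries and 1073, 1067 and 1117 in NHS libraries. The HS libraries spread around the NHS libraries, and the log2 fold change of 0.06 ± 0.08 (SE) did not pass (adjusted p = 0.592, 95% interval -0.12 to 0.24).

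The worm has a pair of Atg8 homologs. *lgg-1*, the GABARAP homolog, is a gene of 2 exons on the minus strand of chromosome II from 6346960 to 6347719. It had 5394, 6542 and 3309 normalized counts in HS libraries, against 5341, 4642 and 4624 in NHS libraries. HS replicates 1 and 2 lay above all NHS libraries and HS replicate 3 below them, so that the coefficient of variation was 32.3% in HS and 8.39% in NHS libraries. Its log2 fold change of 0.01 ± 0.28 (SE, adjusted p = 0.982) had a 95% interval from -0.71 to 0.73, which leaves room for changes of more than 1.5-fold either way. Without HS replicate 3 the log2 fold change was 0.29 and did not pass (adjusted p = 0.0356).

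*lgg-2*, the LC3 homolog, has 3 exons on the minus strand of chromosome IV from 10934196 to 10935903. It had 688, 898 and 608 normalized counts in HS libraries, against 1165, 1312 and 1204 in NHS libraries. Every HS library lay below every NHS library, and *lgg-2* fell by 0.76 on the log2 scale (SE 0.13, adjusted p = 0.00248). It passed in 2 of the 6 fits that leave out 1 library, those without HS replicate 2 or HS replicate 3, and missed the threshold narrowly in the other 4 (adjusted p 0.0102 to 0.0151, log2 fold change -0.71 to -0.80). The ratio of *lgg-2* to *lgg-1* counts within a library was 0.128, 0.137 and 0.184 in HS and 0.218, 0.283 and 0.260 in NHS libraries, also with no overlap, although 3 libraries against 3 cannot reach an exact permutation p below 0.1 and no other test of the difference between these genes was run.

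*sqst-1* encodes the p62 homolog, a receptor that binds ubiquitinated proteins and the Atg8 homologs, and lies on the plus strand of chromosome IV from 12034282 to 12036891. It had 10018, 11935 and 5828 normalized counts in HS libraries, against 2775, 2761 and 2458 in NHS libraries. Even the lowest HS library, replicate 3, had more than the highest NHS library. The log2 fold change was 1.74 ± 0.29 (SE, adjusted p = 0.00841), and *sqst-1* was the 1 gene of the 9 called up. With equal totals the log2 fold change was 1.38 (adjusted p = 0.00720). The spread of the HS libraries (coefficient of variation 33.7%, beside 6.72% in NHS libraries) set the precision: the gene passed in only 1 of the 6 fits that leave out a library, that without HS replicate 3, where the log2 fold change was 2.04 and the adjusted p 3.63e-07. In the other 5 it was 1.52 to 1.77, with adjusted p of 0.0120 to 0.0325.

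The low HS library of *sqst-1* was also the low one of *lgg-1*. Against the mean of HS replicates 1 and 2, HS replicate 3 was lower by 0.91 for *sqst-1* and by 0.85 for *lgg-1* on the log2 scale, and of 15068 genes with at least 10 normalized counts in HS 2.08% and 2.52% were lower still. The ratio of *sqst-1* to *lgg-1* within a library therefore varied little, at 1.86, 1.82 and 1.76 in HS and 0.520, 0.595 and 0.532 in NHS libraries. The HS ratio was 3.31 times the NHS ratio, with no overlap. A ratio within a library does not depend on how libraries are scaled, but the limit of 0.1 on an exact permutation p holds here too, and the ratio shows unequal change, not which of the genes changed.

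**Figure D2:**
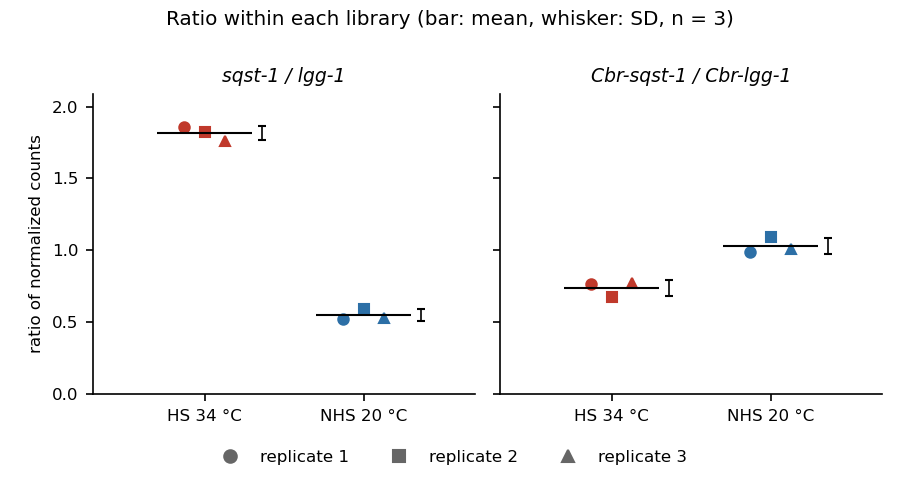
Ratio of the normalized counts of *sqst-1* to *lgg-1* within each *C. elegans* library (left plot) and of *Cbr-sqst-1* to *Cbr-lgg-1* within each *C. briggsae* library (right plot), HS left of NHS, with a bar at the mean and a whisker of 1 SD (n = 3). The HS ratios lie between 1.76 and 1.86 in *C. elegans*, above the NHS ratios, and between 0.675 and 0.774 in *C. briggsae*, below the NHS ratios.

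Over the 6 *C. elegans* libraries, the genes whose centred log2 values lay nearest to those of *sqst-1*, out of 14631 whose mean reached 10, were *rmd-1* (Euclidean distance 0.27), *C27D8.1* (0.28) and *K11H12.4* (0.29). *rmd-1* had 223, 270 and 113 normalized counts in HS and 56.7, 60.4 and 60.7 in NHS libraries, with HS replicate 3 again the lowest of the HS libraries. Of the genes that flank *sqst-1* on the chromosome, *mrpl-51*, 2127 bp before it, had a log2 fold change of 0.24 that did not pass (adjusted p = 0.0230), and *T12G3.2*, 2088 bp after it on the other strand, fell by 0.23 (adjusted p = 0.00637). Among the 18 neighbours of all 9 genes, 3 passed as higher and 3 as lower, beside 15.8% and 12.9% of all genes.

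*epg-5*, with 23 exons on the minus strand of chromosome II from 6598344 to 6609365, encodes the tether of autophagosomes and lysosomes. It had 1577, 1533 and 1457 normalized counts in HS libraries, against 2287, 2224 and 2002 in NHS libraries. The groups did not overlap, and the HS libraries were close together, with a coefficient of variation of 3.97%. *epg-5* fell by 0.51 on the log2 scale (SE 0.07, adjusted p = 0.000361) and passed without any 1 of the 6 libraries (adjusted p at most 0.00268). It overlaps *vps-33.2* on the opposite strand. The library kit keeps the strand of the RNA, and the reads were assigned to transcripts with a stranded library type.

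Levels of different genes were compared per kb of exon. In NHS libraries the order was *lgg-1* (6877 normalized counts per kb), *sqst-1* (1183), *lgg-2* (1181), *atg-18* (682), *atg-7* (521), *atg-9* (450), *bec-1* (413), *unc-51* (355) and *epg-5* (298). Of these neighbours in the order, *sqst-1* and *lgg-2*, *atg-7* and *atg-9*, and *atg-9* and *bec-1* overlapped between libraries. In HS libraries *lgg-1* (7178 per kb) and *sqst-1* (4110 per kb) overlapped, and *sqst-1* stood clear of *lgg-2* (704 per kb). From *lgg-2* down to *unc-51* (330 per kb) each gene then overlapped the next, and *epg-5* (209 per kb) was below all others.

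The rest of the pathway was read from a list of 42 further genes of autophagy, its regulation and the lysosome. Of these 2 passed as higher in HS and 13 as lower, beside 15.8% and 12.9% of all genes, and 27 did not pass, with a median log2 fold change of -0.16. The split depends on the scaling: with equal totals 1 was higher and 34 were lower, beside 9.53% and 37.4% of all genes, and with equal upper quartiles 7 were higher and 2, *vps-39* and *mxl-3*, were lower, beside 27.5% and 5.71%. The calls of the other 11 genes that fell were thus lost with equal upper quartiles. Leaving out 1 library gave 2 or 3 higher and 3 to 12 lower, with 3 higher and 12 lower without HS replicate 3 and 2 higher and 3 lower without NHS replicate 3.

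**Figure D3:**
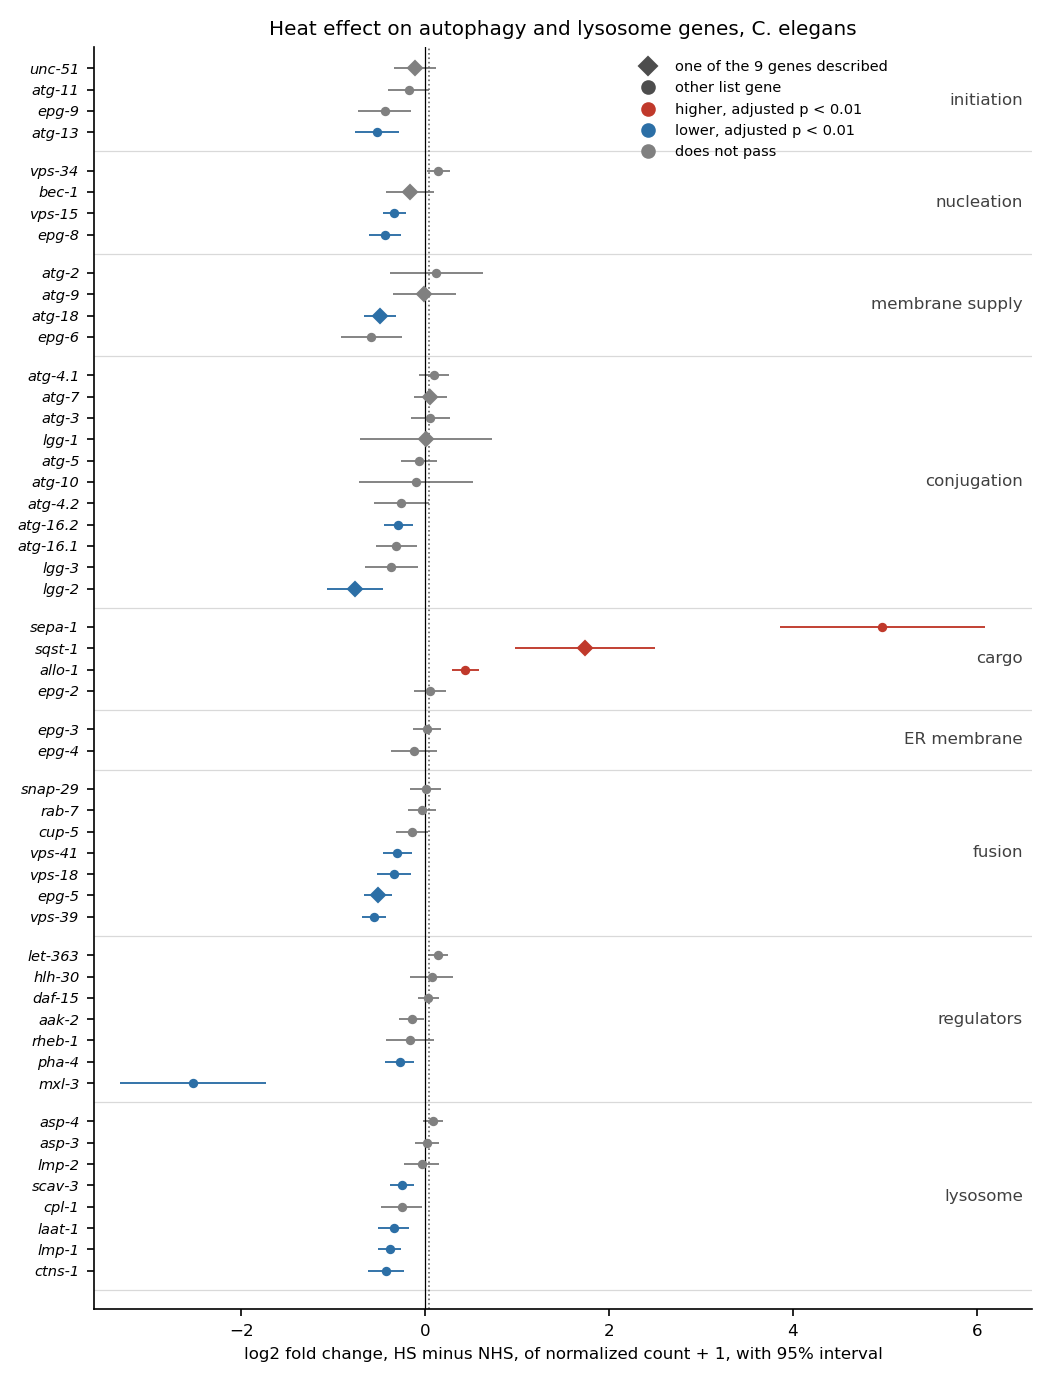
Log2 fold change, HS minus NHS, of normalized count + 1 with its 95% interval for the 9 *C. elegans* autophagy genes (diamonds) and 42 further genes (circles), grouped by step; red passed as higher, blue as lower and grey did not pass at an adjusted p under 0.01, and the dotted line is the median of all genes tested (0.04). The genes that passed as higher, *sepa-1*, *sqst-1* and *allo-1*, all stand in the cargo group, and 16 of the 51 genes passed as lower.

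With *sqst-1*, 3 of the 4 genes for cargo receptors and adaptors passed as higher, beside 15.8% of all genes. *sepa-1*, a receptor that delivers P granule proteins to autophagosomes in the embryo, had 57.4, 23.9 and 78.7 normalized counts in HS libraries and 0.983, 0 and 0.887 in NHS libraries, so it was near the limit of detection without heat and its fold change depends on the pseudocount (adjusted p = 7.64e-05). *allo-1*, the adaptor for paternal mitochondria, had 1597, 1695 and 1486 normalized counts in HS libraries, against 1157, 1217 and 1148 in NHS libraries (log2 fold change 0.44 ± 0.07 SE, adjusted p = 0.000773), and its call was lost with equal totals (log2 fold change 0.08, adjusted p = 0.311). The fourth, the scaffold gene *epg-2*, did not pass (log2 fold change 0.06, adjusted p = 0.577).

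In the initiation and nucleation groups *atg-13*, the adaptor of the UNC-51 kinase, fell by 0.52 on the log2 scale, *vps-15*, the regulatory subunit of VPS-34, by 0.34 and *epg-8*, the ATG14 subunit, by 0.43. *vps-34* itself did not pass (log2 fold change 0.14, adjusted p = 0.0600). In the conjugation group *lgg-2* and *atg-16.2*, an ATG16 homolog that fell by 0.29, were the 2 of 11 genes that passed; the call of *atg-16.2* was lost with the replicate number as a block (adjusted p = 0.0107). *epg-6*, which like *atg-18* encodes a PI3P-binding WIPI protein, was lower by 0.58 and did not pass (adjusted p = 0.0110). It passed as lower with that block (adjusted p = 0.00385) and with equal totals (log2 fold change -0.94, adjusted p = 7.04e-05).

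Of 7 fusion genes 4 passed as lower, beside 12.9% of all genes. Beside *epg-5* these were subunits of the tethers of lysosomal fusion, *vps-39* (log2 fold change -0.56), *vps-18* (-0.34) and *vps-41* (-0.30), whereas the GTPase gene *rab-7* (-0.04) and the SNARE gene *snap-29* (0.01) did not pass. Of the 8 lysosome genes, 4 also passed as lower, *lmp-1* and *scav-3* for membrane proteins (-0.39 and -0.25) and *laat-1* and *ctns-1* for amino acid transporters (-0.34 and -0.42). The proteases *cpl-1*, *asp-3* and *asp-4* and the membrane protein gene *lmp-2* did not pass. With equal upper quartiles *epg-5* and *vps-39* kept their calls, and those of *vps-18* (adjusted p = 0.258), *vps-41* (0.326) and the 4 lysosome genes (0.0307 to 0.583) were lost.

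Among 7 regulators, *mxl-3*, a repressor of lysosomal lipase genes, had 623, 1061 and 512 normalized counts in HS libraries, against 4681, 3564 and 3874 in NHS libraries. The groups were far apart, and *mxl-3* was the 1 gene of the 51 called down (log2 fold change -2.52 ± 0.31 SE, adjusted p = 0.00270), although it missed the threshold with the replicate number as a block (adjusted p = 0.0118). *pha-4*, a FOXA transcription factor gene, fell by 0.28 (adjusted p = 0.00977). *hlh-30*, the TFEB homolog that activates autophagy genes, did not pass at 2426, 2898 and 2406 normalized counts in HS and 2211, 2791 and 2366 in NHS libraries (log2 fold change 0.07, adjusted p = 0.603). The 2 regulators that fell thus include a repressor, and the genes of the TOR pathway, *let-363*, *daf-15* and *rheb-1*, did not pass.

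*Cbr-bec-1* was measured in the *C. briggsae* libraries, which were normalized and fitted by themselves. It had 1175, 2430 and 2434 normalized counts in HS libraries, against 812, 685 and 814 in NHS libraries. All HS libraries lay above all NHS libraries, but HS replicate 1 had less than 1.5 times the highest NHS value and the others about 3 times it. The log2 fold change of 1.31 ± 0.29 (SE) had an adjusted p of 0.0162 and so did not pass, beside 8.13% of 18470 genes that passed as higher, 6.96% that passed as lower and 4.5% called up. Without HS replicate 1 the log2 fold change was 1.66 and passed (adjusted p = 1.89e-07), and without any 1 of the other libraries it was 1.14 to 1.35 (adjusted p 0.0437 to 0.0474). The name *Cbr-bec-1* was at hand because the study listed this gene for a rise after heat in these same libraries, so its direction is not independent evidence. The paper counted a gene as risen at more than 2-fold and an adjusted p under 0.01 with DESeq2. That test differs from the limma fit used here, in which *Cbr-bec-1* missed the same threshold.

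Names linked 12 *C. briggsae* genes to the 51 genes of the list. Of these, 5 were named in the part of the expression table at hand, whatever their response (*Cbr-lgg-1*, *Cbr-atg-9*, *Cbr-atg-18*, *Cbr-atg-10* and *Cbr-ctns-1*). The other 7 stood in tables of genes listed for a rise after heat in these libraries in either species. *Cbr-sqst-1* and *CBG20384*, the partner of *sepa-1*, were listed because the *C. elegans* gene rose. The rest were listed because the *C. briggsae* gene rose, so their rise is fixed in part by that choice. Among the 5 named whatever their response, 2 passed as higher and 0 as lower, beside 8.13% and 6.96% of all *C. briggsae* genes. The HS values of 4 of the 5 lay above all NHS values, beside 25.7% of all *C. briggsae* genes higher and 24.3% lower without overlap. The median log2 fold change of the 5 was 0.77, beside 0.01 for all genes. With equal totals that median was 0.39, beside -0.37 for all genes, and 1 of the 5, *Cbr-ctns-1*, passed as higher, beside 4.31% of all genes. With equal upper quartiles 4 of the 5 passed as higher, beside 9.36%. Without HS replicate 1, 4 of the 5 passed as higher, beside 16.9% of all genes.

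**Figure D4:**
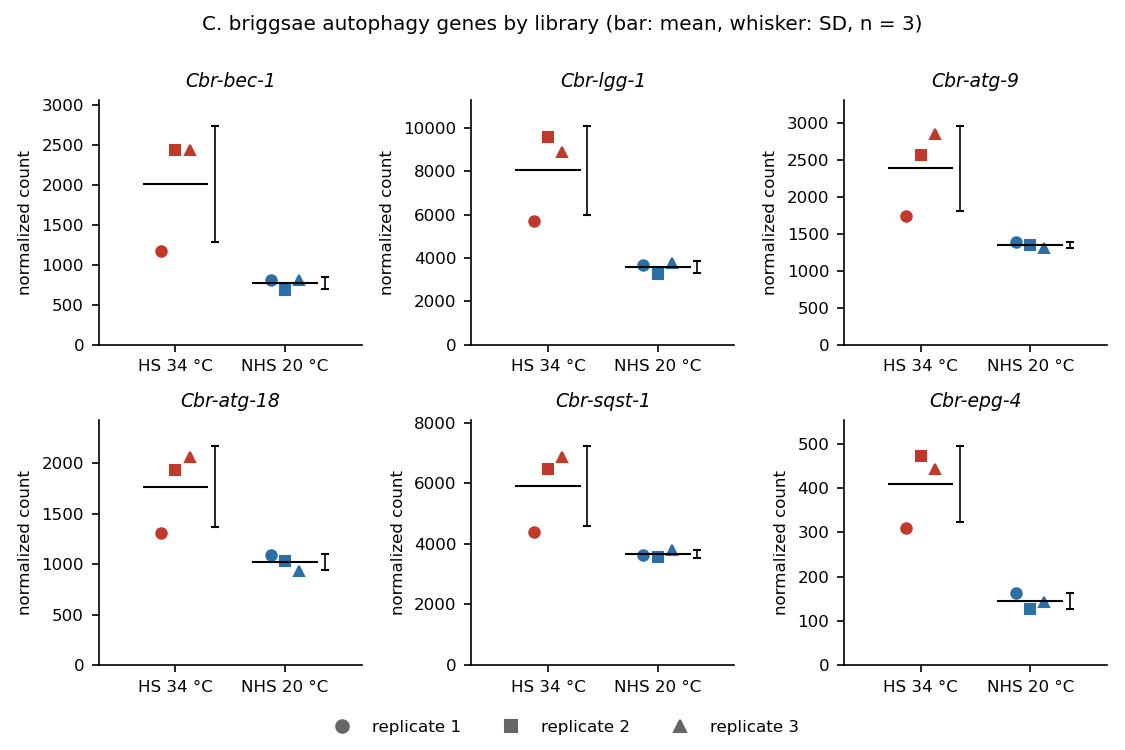
Normalized counts of 6 *C. briggsae* autophagy genes in each library, HS left of NHS, with a symbol for each replicate, a bar at the mean and a whisker of 1 SD (n = 3); each vertical axis starts at 0. HS replicate 1 (circle) is the lowest HS library in each of the 6 plots and still lies above the NHS libraries.

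*Cbr-lgg-1* had 5719, 9567 and 8869 normalized counts in HS libraries, against 3676, 3254 and 3772 in NHS libraries. Its groups did not overlap, and it passed with an adjusted p of 0.00604 and a log2 fold change of 1.14 ± 0.19 (SE). Of the fits that leave out 1 library, it passed only in that without HS replicate 1 (adjusted p 3.51e-07, beside 0.0156 to 0.0252 in the other 5), and with equal totals its call was lost (log2 fold change 0.76, adjusted p = 0.0206). *Cbr-atg-9* had 1740, 2574 and 2850 normalized counts in HS and 1388, 1352 and 1307 in NHS libraries, and *Cbr-atg-18* had 1311, 1930 and 2066 in HS and 1088, 1031 and 933 in NHS libraries. Both lay above their NHS libraries throughout and just missed the threshold, with log2 fold changes of 0.79 (adjusted p = 0.0135) and 0.77 (adjusted p = 0.0133). *Cbr-atg-10*, for the E2-like enzyme of the LGG-3 system, was alike in both groups in level (87.7, 99.2 and 99.0 in HS, 90.0, 91.8 and 103 in NHS libraries), with a 95% interval of -0.32 to 0.33.

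*Cbr-ctns-1*, the cystinosin gene, was steadier than the others, at 1223, 1250 and 1238 normalized counts in HS libraries and 767, 735 and 736 in NHS libraries. Its log2 fold change was 0.73 ± 0.06 (SE), which passed (adjusted p = 0.000354), and HS replicate 1 differed from the mean of the other HS libraries by only -0.03 on the log2 scale. Of the 7 genes from tables of risen genes, *Cbr-allo-1* (log2 fold change 1.30), *Cbr-epg-4*, the EI24 homolog (1.48), and *Cbr-cpl-1*, cathepsin L (2.03), passed. *Cbr-atg-16.1* had 526, 1158 and 1054 normalized counts in HS and 385, 377 and 402 in NHS libraries and did not pass (log2 fold change 1.15, adjusted p = 0.0223).

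*Cbr-sqst-1* had 4396, 6462 and 6862 normalized counts in HS libraries, against 3641, 3564 and 3806 in NHS libraries. It lay above the NHS libraries in each replicate, with a log2 fold change of 0.66 ± 0.16 (SE) that did not pass (adjusted p = 0.0196). Its ratio to *Cbr-lgg-1* within a library was 0.769, 0.675 and 0.774 in HS and 0.990, 1.10 and 1.01 in NHS libraries. That ratio was thus lower in HS than in NHS libraries without overlap, 0.717 times the NHS ratio, while the ratio of *sqst-1* to *lgg-1* in *C. elegans* was higher in HS. Both *Cbr-sqst-1* and *Cbr-lgg-1* had log2 fold changes above 0, at 0.66 and 1.14. The ratio of *Cbr-atg-18* to *Cbr-lgg-1* was also lower in HS without overlap (0.772 times), and that of *Cbr-bec-1* overlapped (1.13 times). In *C. elegans* the ratios of *bec-1* and *atg-18* to *lgg-1* overlapped between HS and NHS libraries.

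The responses of the species were set against each other in 11 pairs of the list with 1 partner on each side. Each effect was taken within its own table, as part of a fit over 1854 pairs. *CBG20384*, listed as a partner of *sepa-1* because *sepa-1* rose, was not in such a pair and was left out of this fit. Its log2 fold change was 0.22 (adjusted p = 0.233 in the *C. briggsae* fit), beside 4.97 for *sepa-1* in *C. elegans*, so this pair ran the other way. Of the 11 pairs, 7 passed, all with the higher response in *C. briggsae*. They were 2 of the 5 pairs named whatever their response, beside 7.92% of such pairs higher and 3.96% lower in *C. briggsae*, and 5 of the 6 pairs listed because a partner rose, beside 21.4% higher and 28.7% lower. These 5 were all listed because the *C. briggsae* gene rose, whereas those shares also cover pairs listed because the *C. elegans* gene rose. The share among pairs listed for a rise in *C. briggsae* alone was not counted, so the 5 of 6 has no like comparison. For *bec-1* the log2 fold change was 1.31 in *C. briggsae* and -0.16 in *C. elegans*, a difference of 1.47 ± 0.34 (SE, adjusted p = 0.00398) that passed in 8 of the 12 fits that leave out 1 library (adjusted p at most 0.0117). Since the pair was at hand because *Cbr-bec-1* rose, this difference is given as a description and the same holds for the pairs of *atg-16.1* (1.46), *allo-1* (0.86), *epg-4* (1.60) and *cpl-1* (2.29).

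**Figure D5:**
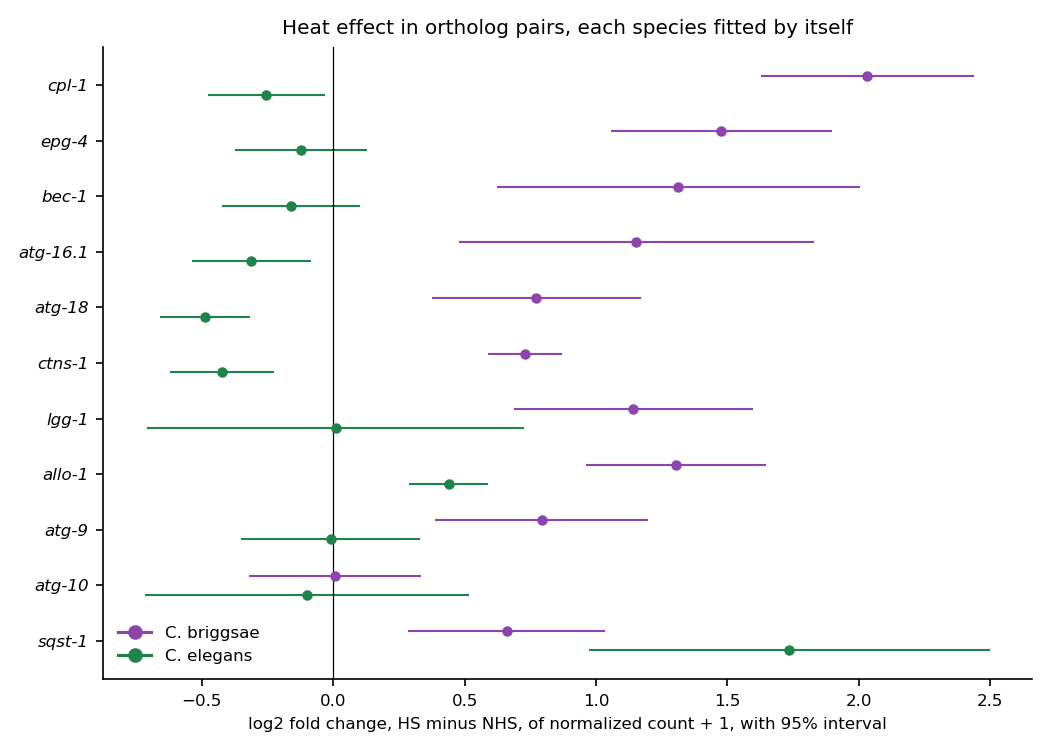
Log2 fold change, HS minus NHS, of normalized count + 1 with its 95% interval for 11 ortholog pairs, *C. briggsae* above *C. elegans* for each gene, ordered by their difference. The *C. briggsae* value is the higher one in 10 pairs and the lower one for *sqst-1*, with 0.66 in *C. briggsae* and 1.74 in *C. elegans*. The pair of *sepa-1* and *CBG20384* is not shown.

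The 5 pairs named whatever their response showed the following. *atg-18* had a log2 fold change of 0.77 in *C. briggsae* and -0.49 in *C. elegans*, a difference of 1.26 ± 0.21 (SE, adjusted p = 0.000499) that passed without any 1 of the 12 libraries. *ctns-1* differed by 1.15 ± 0.11 (SE, adjusted p = 1.51e-05), with 0.73 in *C. briggsae* and -0.42 in *C. elegans*. The differences of *lgg-1* (1.13, 95% interval 0.41 to 1.86, adjusted p = 0.0141), *atg-9* (0.80, 0.25 to 1.36, adjusted p = 0.0199) and *atg-10* (0.11, -0.55 to 0.77, adjusted p = 0.785) did not pass. That of *sqst-1*, whose pair was listed because the *C. elegans* gene rose, was -1.08 (95% interval -1.79 to -0.37) and did not pass (adjusted p = 0.0164). It passed with the replicate number as a block (adjusted p = 0.009998), with equal upper quartiles (-1.25, adjusted p = 0.00658) and without *C. elegans* HS replicate 3 (-1.38, adjusted p = 0.000701).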

How the data were processed

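In each species 3 HS and 3 NHS libraries of whole L2 larvae were sequenced, 12 in all. The deposited values are a signal per gene (normalized counts): the authors mapped reads of stranded total RNA libraries to the mRNA transcriptome of the species with Salmon 0.13.1 and scaled gene counts within that species' 6 libraries with DESeq2 1.18.1. Such factors assume that most genes do not change, and total RNA after heat was not measured. Low values were whole multiples of 1 read (within 0.05 reads) in 90.6% to 97.9% of cases, so counts were not recovered and no count test was run. The column of NHS replicate 3 of AF16 carries a strain name that differs in 1 digit.

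Genes with a mean of at least 2 were tested on log2(value + 1), a scale that understates changes of low genes, with limma 3.58.1 (trend, robust variances, two-sided, Benjamini-Hochberg over all genes) in R 4.3.3 with statmod 1.5.0. Python 3.11.15, pandas 2.3.3, numpy 2.4.6, scipy 1.17.1 and matplotlib 3.10.9 were used. Ortholog pairs, 2030 with 1 partner on each side, came from shared names and the study's ortholog tables. Positions are from the WBcel235 annotation. No sequences are printed. Fits were tested on simulated data. Of 100 genes given a 2-fold change, 58% passed in *C. elegans* and 76% in *C. briggsae*. The simulated HS libraries had the spread of NHS libraries, which was smaller than the HS spread of genes such as *sqst-1* and *Cbr-bec-1*. How the fits perform at that HS spread was therefore not tested.

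Every chosen gene is named, with list genes that pass in either species, those others that the text sets beside them, and the 3 genes nearest to *sqst-1*. Members and lists were chosen with earlier results of these data known. The neighbouring genes and the ratios within libraries were chosen after values were seen. Same-numbered *C. elegans* HS and NHS libraries deviated together (correlations 0.161 to 0.287 over genes), a pairing seen in the data and not given by the labels. The main fits did not use it: their p-values, SEs and intervals are unpaired, and the replicate number entered only in the alternative fit with a block. The alternatives tried were equal totals, equal upper quartiles, no trend, a replicate block, an adjusted p under 0.05, leaving out each library, a filter at a mean of 10 or none, and pseudocounts of 0.5 and 5. Equal totals without the 10 most abundant genes was added after seeing the data.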

Additional observations from a re-analysis of the deposited data

Results flagged for a closer look

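The tested difference between the heat effects in the species, *C. briggsae* minus *C. elegans* on the log2 scale, singled out 7 ortholog pairs: *bec-1* (1.47), *atg-18* (1.26), *atg-16.1* (1.46), *allo-1* (0.86), *epg-4* (1.60), *cpl-1* (2.29) and *ctns-1* (1.15). In each the log2 fold change was above 0 in *C. briggsae*, and in *C. elegans* it was above 0 only for *allo-1*. The pairs of *atg-18* and *ctns-1* were named whatever their response, and the other 5 because the *C. briggsae* gene rose in these libraries. The values of each species were normalized in a table of their own, so species and table cannot be told apart.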

How the results depend on the processing

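With no filter 0 of the 9 *C. elegans* genes passed as higher, and without trend and robust variances 1 passed as lower; equal totals gave 6 lower, and leaving out each library gave 0 to 1 higher and 2 to 3 lower. Of the 42 further genes, 1 was higher and 34 lower with equal totals, 1 and 21 with equal totals without the 10 most abundant genes, 7 and 2 with equal upper quartiles, 1 and 3 without trend, and 2 to 3 and 3 to 12 without each library. *Cbr-bec-1* (1.31) passed at an adjusted p under 0.05, and leaving out each library gave 1.14 to 1.66, and 1.30 to 1.82 for the *bec-1* difference between species. Genes with no call in the main fit changed sign with scaling. These were *unc-51* (0.10), *bec-1* (0.050), *atg-9* (0.20) and the *atg-10* difference between species (-0.054) with equal upper quartiles. With equal totals they were *atg-7* (-0.30), *lgg-1* (-0.35), *Cbr-atg-10* (-0.38) and *CBG20384* (-0.17), or -0.16, -0.21, -0.235 and -0.027 without the 10 most abundant genes. Of the genes with no call in the main fit, *unc-51*, *bec-1* and *atg-7* passed as lower with equal totals. Without single libraries *atg-9* was -0.10 to 0.12, *atg-7* -0.023 to 0.12, *lgg-1* -0.20 to 0.29, *Cbr-atg-10* -0.030 to 0.065 and the *atg-10* difference -0.059 to 0.28. The cause was not tested.

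Over all *C. elegans* genes, 2765 higher and 2266 lower calls became 1667 and 6544 with equal totals, 4844 and 1005 with equal upper quartiles, 1687 and 1049 without trend, 4356 and 3551 at an adjusted p under 0.05, and 1659 to 2738 and 1292 to 2506 without each library; lower calls were 4514 without the 10 most abundant genes. In *C. briggsae*, 1501 and 1285 became 795 and 6406 with equal totals, 897 and 4197 without the 10 most abundant genes, 622 and 391 without trend, 3152 and 2929 at an adjusted p under 0.05, and 425 to 3071 and 135 to 3024 without each library. The replicate block gave 1 higher and 3 lower of the 9 genes, as without it. In *C. briggsae*, where same-numbered libraries deviated together less (correlations 0.024 to 0.116), the block ended the call of *Cbr-lgg-1* (adjusted p = 0.0106) and left *Cbr-bec-1* at 0.0283. With the block the *sqst-1* difference between species passed at 0.009998. With 3 libraries a group, the 2.48-fold difference of *Cbr-bec-1* did not pass. The 2.21-fold difference of *Cbr-lgg-1*, whose HS libraries spread less (coefficient of variation 25.5%, beside 36%), did pass in the main fit. The smallest change that could be detected in *lgg-1* was not determined.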
